A study of Mus musculus with 32 samples.

Results

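The kidneys of NZB/W mice in late remission after triple therapy (6 kidneys) were compared with kidneys of NZB/W mice in early remission after the same therapy (8 kidneys). Members were chosen by the sample titles alone, which give strain, stage of remission and treatment, and these 14 kidneys are part of 32 in the series. NZB/W mice, the F1 females of a cross of NZB and NZW mice, develop immune complex nephritis. All 14 mice received cyclophosphamide (CTX), an alkylating drug that kills dividing lymphocytes, CTLA4Ig, a fusion protein that binds CD80 and CD86 and so blocks costimulation through CD28, and an antibody to CD154, the CD40 ligand of activated T cells. Neither the ages of these mice nor the interval between early and late remission is given in the sources used here, and the stage of remission cannot be told apart from age. The other NZB/W kidneys came from untreated mice 30 weeks old (7 kidneys) and from mice in late remission after TACI-Ig, which binds BAFF and APRIL, with CTLA4Ig (5 kidneys). RNA came from whole kidney, so that fewer cells of a type and less RNA per cell cannot be told apart. Expression is given on the log2 scale throughout, and a difference is late minus early.

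Most of the kidney cortex is proximal tubule. Its cells reclaim glucose, amino acids, phosphate and organic acids from the filtrate, and they run on mitochondrial oxidation of fatty acids, ketone bodies and amino acids. They also break down tyrosine, lysine and branched-chain amino acids, conjugate foreign compounds with glutathione, and lose the transcripts of these pathways when injured. In lupus nephritis, plasma cells, macrophages and lymphocytes enter the organ, and interferon-stimulated genes are a known feature of the disease.

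The 6 measured defining genes of kidney segments, Umod, Slc12a1, Slc34a1, Lrp2, Aqp2 and Slc12a3, lay between 9.84 and 13.83 in all 14 kidneys. Correlations between arrays ranged from 0.9844 to 0.9973. The letters that begin the sample names were V in all 6 late kidneys, and BG in 4, GG in 3 and V in 1 (replicate 8) of the early kidneys. The letters are not stated to mark batches, and stage and letters are nearly the same split. Early replicate 8 also stood apart in genes of the male-type proximal tubule: the mean of 7 such genes was 9.24 there against 7.70 to 8.26 in the other early kidneys, while Xist was 10.58 and the Y-linked Eif2s3y 3.84, within or near the range of the other kidneys. Early replicate 2 had a mean of the fatty acid oxidation list of 11.21, against 10.46 to 10.65 in the other early kidneys.

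The mean of the late kidneys was nearly the same, gene by gene, as the mean of the 12 kidneys from 30-week and TACI-Ig mice pooled. Over 15780 genes, the late mean minus the pooled mean was at most 0.0255 in size, with an SD over genes of 0.0045, whereas the median standard error of such a difference was 0.0779. The early mean minus the same pooled mean reached 1.1155, with an SD over genes of 0.1012. The arrays were batch-corrected together by the authors and the batches are not named. A level particular to late remission therefore cannot be told apart from that of the pooled kidneys, and each difference given here is also, within 0.0255, the pooled kidneys minus the early kidneys.

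**Figure D1:**
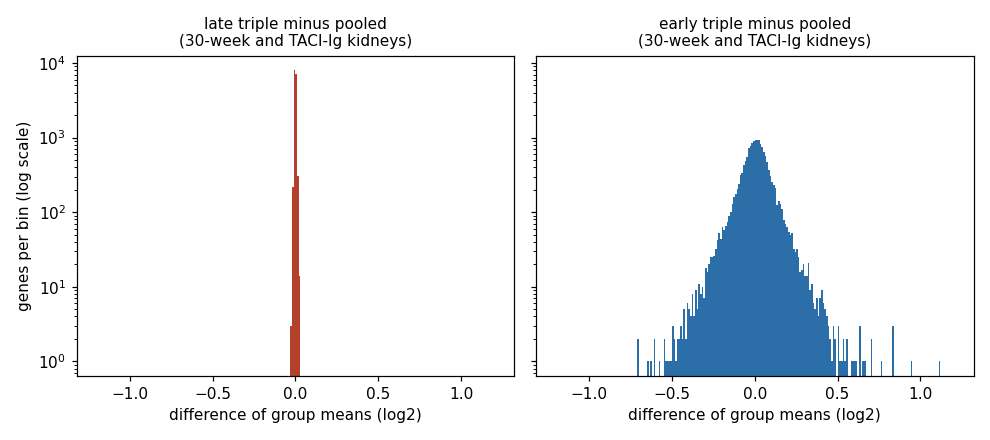
Differences of group means over all genes, on the log2 scale, with genes per bin on a log axis. Late minus pooled (left, red) stayed within 0.0255 of 0, and early minus pooled (right, blue) reached 1.1155.

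The genes that passed the test were all lower in late remission. With limma and a Benjamini-Hochberg adjusted p under 0.05 over 15780 genes, 11 genes were lower (0.0697% of those tested) and 0 were higher (0.0%). At an unadjusted p under 0.05, 601 genes were lower (3.81%) and 237 were higher (1.5%). Rescaling moved that split: it was 352 lower and 342 higher after a second quantile normalization, and 848 lower and 139 higher after median centring. No gene passed the filter that the study used elsewhere (a SAM q value no higher than 0.001 together with a fold not below 1.4, or not above 0.7), whether the limma adjusted p or the q value of a SAM-type test with 100 permutations was used, and the SAM-type test called 0 genes at 0.05. The 11 calls depended on the kidneys included. No gene was called in 9 of 14 fits that each left out 1 kidney, namely early replicates 3, 4, 5, 6 and 7 and late replicates 6, 7, 9 and 10, and 27 were lower without early replicate 2, without early replicate 8 or without late replicate 8, and 4 without late replicate 11. All 11 were lower in every one of these fits. In 10 of the 11 the groups did not overlap, so that leaving out 1 kidney could not reverse the direction. With the letters as a covariate, the late kidneys were compared with early replicate 8 alone, the only early kidney with their letters. Cndp1 was then -0.914. With the BG early kidneys alone, 0 of the 11 were called.

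**Figure D2:**
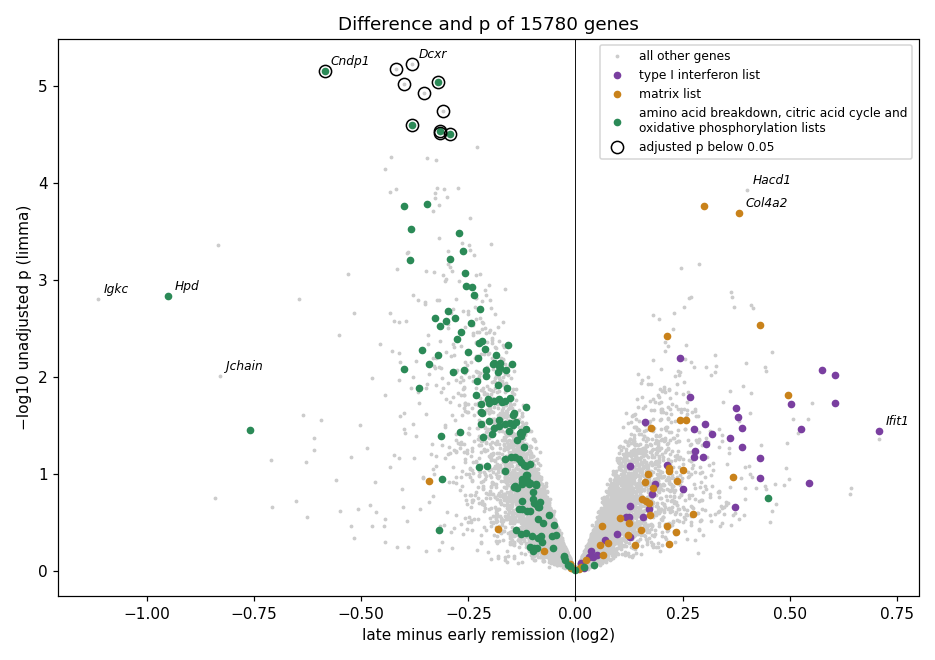
Late minus early difference (log2, horizontal) against −log10 of the unadjusted limma p (vertical) for each gene. The 11 circled genes are those with an adjusted p below 0.05, all on the left, between -0.59 and -0.29.

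Most of these genes encode enzymes of intermediary metabolism and detoxification. Cndp1, carnosine dipeptidase, had the largest difference. Its values were 9.21, 9.46 and 9.80 (lowest, median and highest) in late kidneys, against 9.80, 10.04 and 10.38 in early kidneys, a difference of -0.59 ± 0.090 (SE) with a limma adjusted p of 0.0301. The groups met at 9.80, at late replicate 11 and early replicate 2.

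Others act in the breakdown of amino acids and fatty acids. Gcdh, the glutaryl-CoA dehydrogenase of lysine and tryptophan breakdown, was 11.16, 11.24 and 11.32 in late kidneys, against 11.45, 11.56 and 11.72 in early kidneys (-0.32 ± 0.051, limma adjusted p 0.0301). Gstz1, which isomerises maleylacetoacetate in tyrosine breakdown, was 10.52, 10.62 and 10.70 in late kidneys, against 10.76, 10.94 and 11.04 in early kidneys (-0.32 ± 0.055, adjusted p 0.0454). Fah, the next and last enzyme of that pathway, was 11.53, 11.62 and 11.79 in late kidneys, against 11.83, 11.93 and 12.02 in early kidneys (-0.29 ± 0.051, adjusted p 0.0454). Echs1, the enoyl-CoA hydratase of mitochondrial fatty acid and valine oxidation, was 11.06, 11.25 and 11.47 in late kidneys, against 11.49, 11.63 and 11.73 in early kidneys (-0.38 ± 0.066, adjusted p 0.0454). In each of these 4 genes every late kidney was below every early kidney, as in 35 genes of all 15780 (0.222%). The genes were picked by p on these same values.

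Among enzymes of sugar, ketone, nucleotide and glutathione metabolism, Dcxr, which reduces xylulose, was 11.01, 11.14 and 11.38 in late kidneys, against 11.41, 11.56 and 11.65 in early kidneys (-0.38 ± 0.058, limma adjusted p 0.0301). Bdh2, a cytosolic hydroxybutyrate dehydrogenase, was 10.98, 11.17 and 11.32 in late kidneys, against 11.35, 11.53 and 11.61 in early kidneys (-0.35 ± 0.057, adjusted p 0.0312). Ak3, an adenylate kinase of the mitochondrial matrix, was 10.17, 10.19 and 10.31 in late kidneys, against 10.40, 10.54 and 10.64 in early kidneys (-0.31 ± 0.052, adjusted p 0.0413). Gstk1, a mitochondrial and peroxisomal glutathione transferase, was 10.44, 10.53 and 10.72 in late kidneys, against 10.75, 10.93 and 11.12 in early kidneys (-0.40 ± 0.063, adjusted p 0.0301). No late kidney reached the lowest early kidney in these 4 genes, which holds for 0.222% of all genes.

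The remaining 2 genes have other roles. Wfdc15b, a secreted protein with a whey acidic protein domain, was 12.21, 12.33 and 12.47 in late kidneys, against 12.59, 12.77 and 12.91 in early kidneys (-0.42 ± 0.064, adjusted p 0.0301). Selenbp1, a selenium-binding protein with methanethiol oxidase activity, was 11.54, 11.63 and 11.74 in late kidneys, against 11.78, 12.01 and 12.05 in early kidneys (-0.32 ± 0.055, adjusted p 0.0454). In 10 of the 11 genes the groups did not overlap, as in 35 genes of all 15780 (0.222%) that were lower without overlap. In 30-week kidneys, whose values enter the pooled mean, Dcxr averaged 11.28, Gcdh 11.38 and Cndp1 9.69. TACI-Ig kidneys, the rest of that pool, averaged 11.05 for Gcdh and 9.15 for Cndp1. The late means of Gcdh and Cndp1, 11.24 and 9.47, lay between those of the pooled groups. Of the 11 genes, only Wfdc15b (12.38 against 12.32) and Selenbp1 (11.72 against 11.59) averaged higher in TACI-Ig than in 30-week kidneys.

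**Figure D3:**
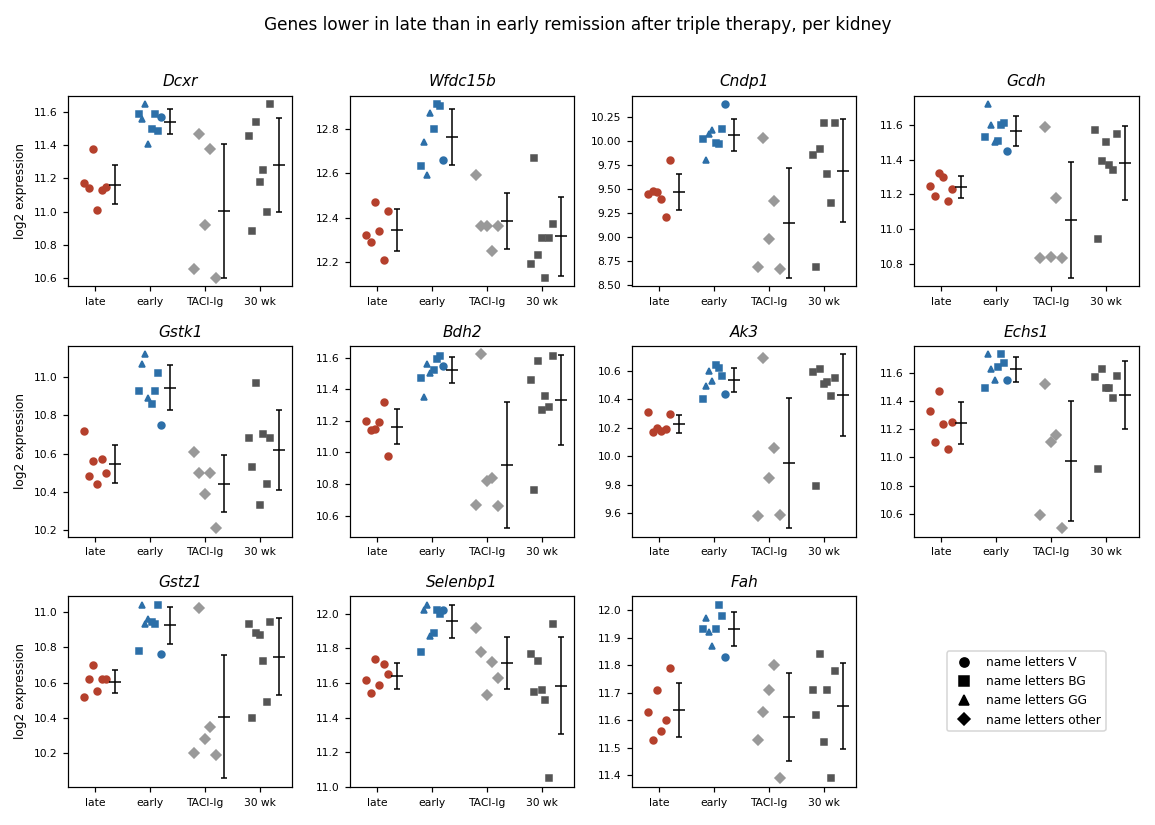
Log2 expression of the 11 genes in each kidney of the 4 NZB/W groups, with mean and SD beside each group and the marker shape giving the letters of the sample name. In all panels but that of Cndp1 the late kidneys lie below the early kidneys, while the TACI-Ig and 30-week kidneys spread over more of the axis.

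Promoter sequences of 10 of the 11 genes were held in the RefSeq tables (GRCm38.p6). The 6 letters AGGTCA, the half-site that many nuclear receptors of tubule metabolism recognise, were found on either strand of the 250 bases before the start in 3 of the 10 (30.0%), Wfdc15b, Gstk1 and Echs1, and in 14.3% of 12585 genes. CCAAT was found in 6 of the 10 (60.0%) and in 39.7% of all genes. The HNF4 letters CAAAGTCCA were in 0 of the 10 and in 0.469% of all genes, and the HNF1 letters (GTTAAT, any base, ATT) in 0 of the 10 and in 0.342%. The stretches of Echs1 (chr7:140116422-140116671, minus strand) and Gstk1 (chr6:42245685-42245934, plus strand) are shown as 2 of the 3 that hold AGGTCA, in capitals; in Gstk1 it lies on the opposite strand and reads TGACCT.
Echs1: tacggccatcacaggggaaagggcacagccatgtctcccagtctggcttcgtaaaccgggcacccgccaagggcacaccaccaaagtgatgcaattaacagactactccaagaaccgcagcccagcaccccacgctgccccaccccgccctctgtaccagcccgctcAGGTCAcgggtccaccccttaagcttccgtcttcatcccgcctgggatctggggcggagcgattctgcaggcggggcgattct
Gstk1: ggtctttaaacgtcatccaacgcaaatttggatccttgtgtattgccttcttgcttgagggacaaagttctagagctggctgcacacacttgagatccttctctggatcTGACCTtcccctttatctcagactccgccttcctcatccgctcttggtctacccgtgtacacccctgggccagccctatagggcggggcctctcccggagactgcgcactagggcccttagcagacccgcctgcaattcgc

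The metabolic lists had lower medians than all genes, whose median difference was -0.01. Of all genes, 54.8% had a lower mean in late remission, 3.81% were lower at an unadjusted p under 0.05 and 0.0697% were called lower. A second quantile normalization brought the medians closer to 0: aromatic amino acid breakdown was then -0.14, branched-chain -0.12 and fatty acid oxidation -0.03, and gluconeogenesis, at 0.0025, lay above the all-gene median of -0.0028. In the list of aromatic amino acid, lysine, glycine and proline breakdown, 46 of 49 measured genes had a lower mean, 27 at an unadjusted p under 0.05. In it 4 were called (Cndp1, Gcdh, Gstz1 and Fah) and the median was -0.22. Of these, Cndp1 is a dipeptidase and not an enzyme of the pathways in the name of the list. In branched-chain amino acid breakdown 24 of 24 genes had a lower mean, 17 at an unadjusted p under 0.05, 1 was called (Echs1) and the median was -0.22. Pcca, of propionyl-CoA carboxylase, was 10.38, 10.58 and 10.75 in late kidneys, against 10.70, 10.86 and 10.95 in early kidneys (-0.26 ± 0.061, limma adjusted p 0.189). Hpd, the dioxygenase of tyrosine breakdown, had the second most negative difference among genes with an unadjusted p under 0.05, with 9.52, 10.92 and 11.58 in late kidneys, against 11.34, 11.67 and 12.31 in early kidneys (-0.95 ± 0.249, adjusted p 0.296). Late replicate 9 was the lowest at 9.52.

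Mitochondrial genes showed small and uniform shifts. For comparison, 54.8% of all genes had a lower mean, 3.81% were lower at an unadjusted p under 0.05 and 0.0697% were called lower. All 24 measured genes of the citric acid cycle had a lower mean, 15 at an unadjusted p under 0.05, with a median of -0.15, and all 60 of oxidative phosphorylation, 30 at an unadjusted p under 0.05, with a median of -0.13, and none of these genes was called. A second quantile normalization took these medians to -0.03 and -0.01. The letters as a covariate, which leaves early replicate 8 as the only comparator, took them to -0.02 and 0.01. Uqcrc1, a core subunit of complex III, was 11.55, 11.76 and 11.89 in late kidneys, against 11.90, 12.0 and 12.11 in early kidneys (-0.27 ± 0.060, adjusted p 0.154). Cox5b, of cytochrome c oxidase, was 12.44, 12.48 and 12.59 in late kidneys, against 12.59, 12.77 and 12.99 in early kidneys (-0.29 ± 0.069, adjusted p 0.207). Fatty acid oxidation had a median of -0.14, with 30 of 34 genes lower, but 4 at an unadjusted p under 0.05 and 1 call (Echs1). Without 1 kidney its median ranged from -0.17 to -0.05.

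Sterol synthesis, glutathione and uronate genes also had lower medians than all genes, of which 54.8% had a lower mean and 0.0697% were called lower. All 17 sterol genes had a lower mean (median -0.21). Insig1 holds back SREBP in the endoplasmic reticulum. It was 6.77, 7.06 and 7.49 in late kidneys, against 6.99, 7.81 and 8.14 in early kidneys (-0.64 ± 0.170, limma adjusted p 0.296). Glutathione genes had a median of -0.13 (26 of 30 lower, 2 called, Gstk1 and Gstz1), and uronate, polyol and fructose genes -0.21 (12 of 14 lower, Dcxr called). After a second quantile normalization the glutathione median was -0.06 and the uronate median -0.09, and with the GG early kidneys alone the sterol median was -0.01. Cyp2d12, a cytochrome P450 of the Cyp2d family, was 6.73, 7.27 and 8.09 in late kidneys, against 7.78, 8.03 and 8.64 in early kidneys (-0.83 ± 0.190, adjusted p 0.178). Bhmt, which remethylates homocysteine from betaine, and Apob, the lipoprotein scaffold, averaged 0.76 and 0.59 lower without passing (limma adjusted p 0.862 and 0.798). With the letters as a covariate, and so against early replicate 8 alone, they were 0.342 and 0.275.

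Proximal tubule transporters had a median of -0.14, with 44 of 47 lower, 12 at an unadjusted p under 0.05 and none called. Over all genes 54.8% were lower, and 3.81% were lower at that p. Slc13a3, the sodium dicarboxylate transporter of the basolateral side, was 11.63, 11.72 and 11.86 in late kidneys, against 11.73, 12.16 and 12.49 in early kidneys (-0.43 ± 0.086, adjusted p 0.0865). Early replicate 8, at 11.73, lay within the late range. Without it the gene was called (limma adjusted p 0.0199). With the letters as a covariate, which compares the late kidneys with that kidney alone, the difference was -0.005. After a second quantile normalization the list median was -0.05. The loop of Henle and distal tubule had a median of -0.08 and the collecting duct -0.07. Egf, made in the distal tubule, was 12.85, 12.99 and 13.03 in late kidneys, against 13.03, 13.37 and 13.51 in early kidneys (-0.32 ± 0.084, adjusted p 0.296).

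Podocyte genes, of the glomerular filter, had a median of -0.07 (13 of 17 lower, 5 at an unadjusted p under 0.05, none called). Over all genes 54.8% were lower, and 3.81% were lower at that p. Nphs1, nephrin of the slit diaphragm, was 6.66, 7.06 and 7.17 in late kidneys, against 7.05, 7.19 and 7.48 in early kidneys (-0.23 ± 0.090, adjusted p 0.728), and the groups overlapped. Vegfa, made by podocytes and tubules, was 8.84, 8.91 and 9.04 in late kidneys, against 8.87, 9.18 and 9.20 in early kidneys (-0.20 ± 0.059, adjusted p 0.449).

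**Figure D4:**
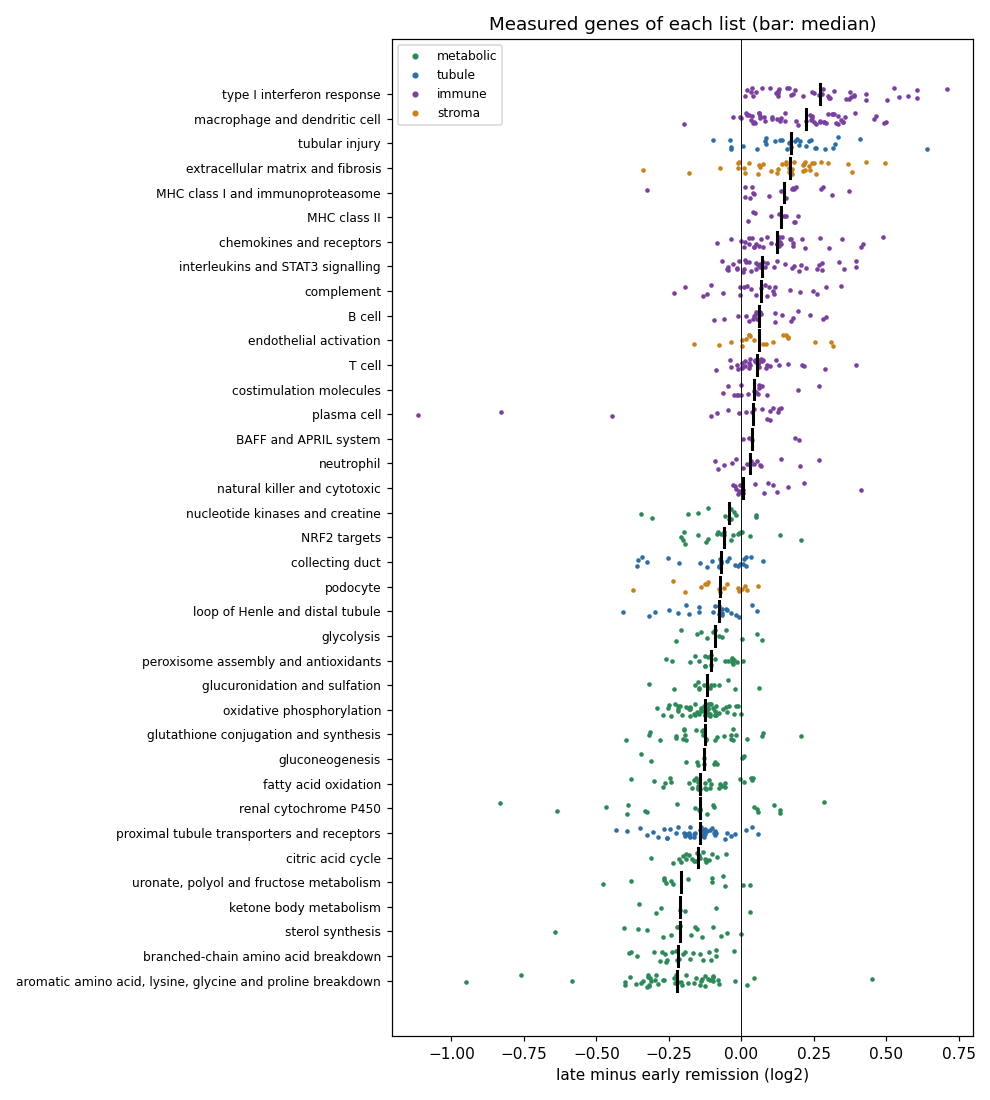
Late minus early difference (log2) of each measured gene of the metabolic, tubule, immune and stromal lists, 1 row per list, with the median as a bar, colours giving the kind of list. Among these lists amino acid breakdown lies lowest at -0.22 and the type I interferon list highest at 0.27.

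Immunoglobulin transcripts were lower on average but did not pass the adjusted threshold. Igkc, the kappa constant region, had the most negative difference of all genes and was 11.71, 12.19 and 12.35 in late kidneys, against 12.08, 13.37 and 14.22 in early kidneys (-1.11 ± 0.294, adjusted p 0.296). Early replicates 6 (12.18) and 7 (12.08) overlapped the late kidneys, and the other 6 early kidneys were above them all. Jchain, which joins IgA and IgM, was 10.56, 11.15 and 11.82 in late kidneys, against 10.82, 11.98 and 12.91 in early kidneys (-0.83 ± 0.283, adjusted p 0.576), and Igha, of the IgA heavy chain, 10.92, 11.41 and 12.49 in late kidneys, against 11.22, 12.15 and 13.03 in early kidneys (-0.61 ± 0.278, adjusted p 0.918). The plasma cell list as a whole had a median of 0.04, with 11 of 18 genes higher, against 7129 of 15780 over all genes. Mzb1, a chaperone of plasma cells, was 6.46 to 9.01 in late kidneys, against 7.55 to 8.75 in early kidneys.

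Interferon-stimulated genes had the highest median of any immune list, 0.27. All 44 measured genes were higher, against 7129 of 15780 over all genes. At an unadjusted p under 0.05, 17 were higher (1.5% of all genes), and none was called. Ifit1, which binds foreign RNA, was 7.64, 7.88, 6.0, 6.33, 7.55 and 8.10 in late replicates 6 to 11, against 7.48, 6.17, 6.20, 6.70, 6.26, 6.27, 6.33 and 6.92 in early replicates 1 to 8 (0.71 ± 0.310, adjusted p 0.862). Late replicates 6, 7, 10 and 11 were high, late replicate 9 lay within the early range and late replicate 8 below it, and early replicates 1 and 8 were the highest early kidneys. Usp18, a brake on interferon signalling, was highest among late kidneys in the same 4, of which 3 lay above all early kidneys, with 6.57, 7.52 and 8.11 in late kidneys, against 6.40, 6.67 and 7.54 in early kidneys (0.61 ± 0.232, adjusted p 0.728). Gbp3, a guanylate-binding protein, was 8.41, 8.87 and 9.36 in late kidneys, against 7.48, 8.51 and 8.73 in early kidneys (0.58 ± 0.192, adjusted p 0.557). With the letters as a covariate, which leaves early replicate 8 as the comparator, the list median was 0.06, and Irf7 was -0.14.

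The core letters of the interferon-stimulated response element (ISRE), GAAA, any 2 bases and GAAA, were found on either strand in the promoters of 13 of 31 interferon-list genes that had one (41.9%), against 3.11% of 12585 genes. The upstream stretches of Ifit1 (chr19:34640639-34640888, plus strand) and Gbp3 (chr3:142559794-142560043, plus strand) are shown because both genes are among the largest positive differences; capitals mark the matches, which run on the opposite strand, and in Gbp3 the 2 matches overlap.
Ifit1: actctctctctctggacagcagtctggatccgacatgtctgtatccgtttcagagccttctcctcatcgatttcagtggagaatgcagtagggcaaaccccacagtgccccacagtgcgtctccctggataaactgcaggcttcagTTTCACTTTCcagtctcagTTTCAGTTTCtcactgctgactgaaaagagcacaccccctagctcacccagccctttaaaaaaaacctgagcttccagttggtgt
Gbp3: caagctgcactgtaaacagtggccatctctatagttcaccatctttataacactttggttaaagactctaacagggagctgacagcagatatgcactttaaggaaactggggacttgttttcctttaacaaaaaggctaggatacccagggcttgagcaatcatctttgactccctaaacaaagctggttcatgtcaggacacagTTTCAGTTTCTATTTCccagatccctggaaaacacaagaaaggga

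The genes with the smallest p among those higher in late remission included genes of basement membrane and cytoskeleton, and none passed the adjusted threshold. Hacd1, a dehydratase of very long chain fatty acid synthesis, was 7.55, 7.65 and 7.84 in late kidneys, against 6.88, 7.30 and 7.46 in early kidneys (0.40 ± 0.079, adjusted p 0.0865). Col4a1, the type IV collagen of basement membranes, was 10.74, 10.81 and 11.05 in late kidneys, against 10.45, 10.58 and 10.65 in early kidneys (0.30 ± 0.062, adjusted p 0.0940). Col4a2, its partner chain, was 9.37, 9.59 and 9.85 in late kidneys, against 9.06, 9.19 and 9.50 in early kidneys (0.38 ± 0.080, adjusted p 0.103). Plod2, which hydroxylates collagen lysines, averaged 0.36 higher (adjusted p 0.296) and Actn1, an actin crosslinker, 0.25 higher (adjusted p 0.232). Xist (0.36), Nop58 (0.41), Tent5a (0.27) and Pamr1 (0.27) were also among the smallest p, with limma adjusted p of 0.296, 0.316, 0.296 and 0.296. Every late kidney was above every early kidney for Hacd1, Col4a1, Actn1 and Tent5a, as for 5 genes of all tested (0.0317%). The matrix list had a median of 0.17, with 36 of 42 higher, against 7129 of 15780 over all genes. In it, 8 genes were higher at an unadjusted p under 0.05, against 1.5% of all genes. With the letters as a covariate, and so against early replicate 8 alone, the list median was 0.03 and Col4a2 was 0.096 higher. Fn1, fibronectin, was 9.26, 9.39 and 9.63 in late kidneys, against 8.39, 9.05 and 9.44 in early kidneys (0.43 ± 0.123, adjusted p 0.371).

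Tubular injury genes had a median of 0.17, with 27 of 31 higher, 3 at an unadjusted p under 0.05 and none called. Over all 15780 genes 7129 were higher, and 1.5% were higher at that p. With the GG early kidneys alone the list median was 5e-04. Clu, a chaperone secreted by injured tubules, was 11.89, 12.09 and 12.19 in late kidneys, against 11.63, 11.72 and 12.03 in early kidneys (0.29 ± 0.069, adjusted p 0.222). Havcr1, or KIM-1, was 8.52, 8.99 and 9.80 in late kidneys, against 8.26, 8.73 and 8.92 in early kidneys (0.33 ± 0.161, adjusted p 0.953). Lcn2, which binds bacterial siderophores and rises in tubular injury, was 6.13, 7.43 and 8.39 in late kidneys, against 5.69, 6.46 and 8.35 in early kidneys (0.64 ± 0.440, adjusted p 1.0), a spread within each group larger than the difference. Il1f6, an interleukin-36 cytokine, was 6.23, 6.55 and 6.87 in late kidneys, against 6.03, 6.32 and 6.81 in early kidneys (0.20 ± 0.125, adjusted p 1.0).

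Immune cell lists showed no called gene. Macrophage and dendritic cell genes had a median of 0.22, with 51 of 55 higher, against 7129 of 15780 over all genes. None of those higher had an unadjusted p under 0.05, and the 1 member that did, Cyba, a subunit of the phagocyte oxidase, was lower (-0.20 ± 0.058, limma adjusted p 0.388). Their mean per kidney was 6.53 to 7.64 in late kidneys and 6.61 to 7.20 in early kidneys, and the median without 1 kidney ranged from 0.09 to 0.33. T cell genes had a median of 0.05, B cell genes 0.06, MHC class II genes 0.14 and costimulation genes 0.04. Against early replicate 8 alone, the comparator left by the letters as a covariate, the medians were -0.01 for macrophage and -0.04 for T cell genes. They were -0.16 for B cell and -0.09 for MHC class II genes. Of the therapy's targets, chosen for this role and not by the naming rule, Cd80 was 4.54 to 4.81 in late kidneys and 4.57 to 4.74 in early kidneys, Cd40lg 6.62 to 6.98 in late kidneys and 6.42 to 6.95 in early kidneys, and Cd86 5.23 to 6.34 in late kidneys and 5.47 to 5.88 in early kidneys.

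Marker genes of other tissues differed in level between kidneys. The mean of 8 adrenal cortex genes was 6.77 to 7.15 in late kidneys and 5.28 to 8.55 in early kidneys, of which 4 lay above and 4 below all late kidneys. It was 5.50 to 5.74 in TACI-Ig kidneys and 5.55 to 8.94 in 30-week kidneys. Because the late mean matched the pooled mean of these kidneys, the late level cannot be read as an amount of adrenal tissue. The mean of 13 adipose genes was 7.22 to 9.58 in late kidneys and 8.43 to 9.5 in early kidneys. No adrenal or adipose gene was called. The part of other tissues in the differences above was not tested.

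**Figure D5:**
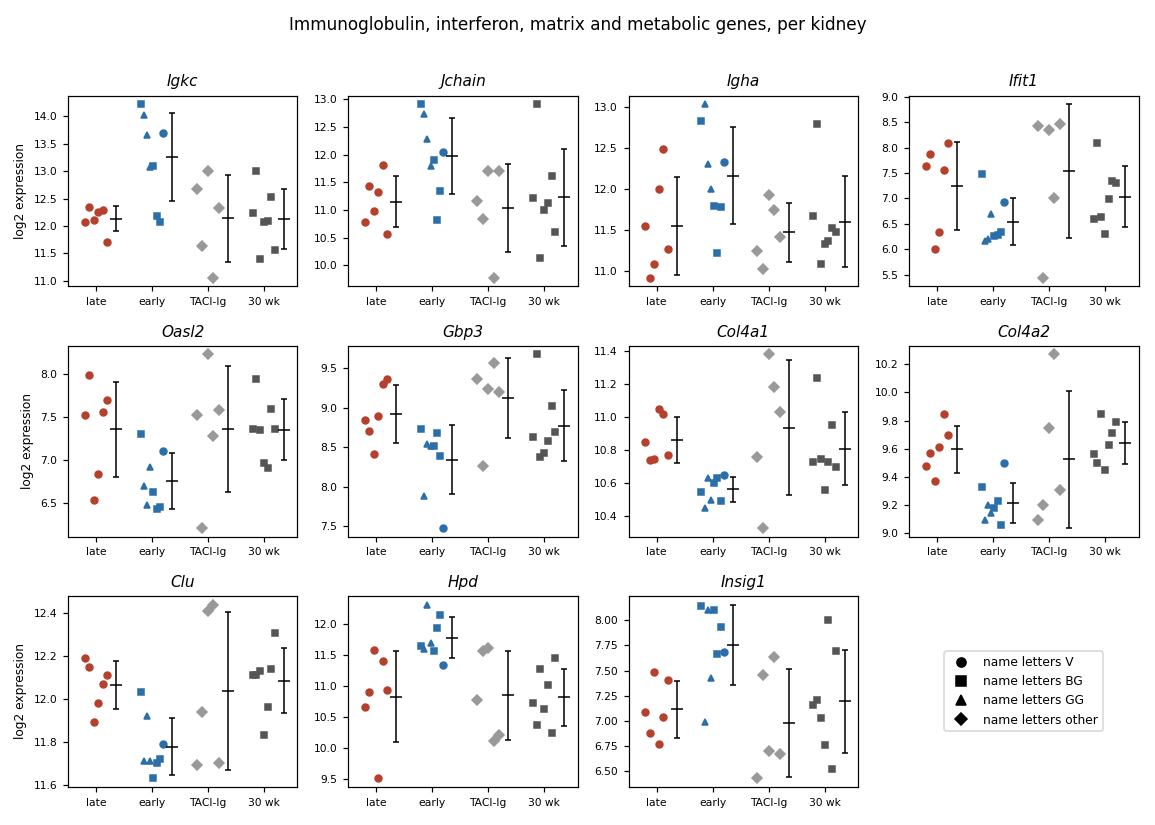
Log2 expression of 11 genes in each kidney, drawn with the mean and SD of each NZB/W group and the shape giving the letters of the sample name. The late kidneys are low for Igkc, split for Ifit1 and high for Col4a1, against the early kidneys.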

How the data were processed

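Whole-kidney RNA was hybridised to Affymetrix arrays. The deposited values are log2 expression, made by the authors with RMA per the labels (no version given), with 1 probe set per Entrez gene, normalized and batch-corrected together; the batches are not named. They were used as deposited, with no columns of the authors' own comparisons present. Groups came from the sample titles. Of 16539 probe sets, 64 were controls and 695 had no single gene name, leaving 15780, of which 15752 Entrez identifiers were in RefSeq. Late and early kidneys were fitted by limma (version 3.58.1, run under R 4.3.3) using lmFit, then eBayes; p-values were adjusted by Benjamini-Hochberg across the whole table; the rest used Python 3.11.15, pandas 2.3.3 and numpy 2.4.6. Arrays give no depth, so the number of kidneys limits the precision. The labels do not state outright that replicates are separate mice, so p-values measure the spread between these samples. Early replicate 1 and a 30-week kidney (replicate 6) carry the same mouse code in their sample names, which touches the early minus pooled difference and the joint fit. The fit was tested on simulated data.

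Named genes were those past the threshold, the 10 most negative and 10 most positive differences at an unadjusted p under 0.05, the 10 smallest p among higher genes, the 3 smallest p of each list, 7 genes of prior interest and the defining genes of marker lists. The comparison, members, lists and rules were chosen with earlier results of these data known. Alternatives were a joint fit of NZB/W kidneys, quantile normalization, median centring, dim genes out (mean log2 at or below 6), array weights, an intensity trend with robust prior, sample-name letters, subsets by letters, the replicate block, a SAM-type test and leaving out each kidney. Leaving out early replicates 2 and 8 was added after the data were seen. Several list genes were not analysed here.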

Additional observations from a re-analysis of the deposited data

Results flagged for a closer look

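Of 226 tests of a highest or lowest kidney against the rest of its group (Dixon, 95% level), 14 stood apart. The test flags about 1 group in 20 by chance, and this count is not far above that rate. Late replicate 8 was the highest late kidney for Acad11 (11.39, others 10.94 to 11.10), the gluconeogenesis list (11.20) and the NRF2 target list (9.78), and the lowest for the red blood cell list (6.55). Late replicate 11 was the highest for the loop of Henle and distal tubule list (10.07). Early replicate 2 was the highest early kidney for Ppp1r1b (9.20), fatty acid oxidation (11.21) and skeletal muscle (5.40), and the lowest for Vegfa (8.87). Early replicate 8 was the highest for the red blood cell list (8.18) and male-specific proximal tubule (9.24), and the lowest for Hacd1 (6.88). Early replicate 3 was the highest for Bcat2 (9.68), and early replicate 1 the lowest for peroxisome assembly and antioxidants (9.53). Without early replicate 8 the Hacd1 difference was 0.34, with a limma adjusted p of 0.0335.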

How the results depend on the processing

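The count of 11 genes lower and 0 higher was 0 lower in the joint fit of NZB/W kidneys, after a second quantile normalization, with the GG early kidneys alone and in the SAM-type test, 7 with an intensity trend and robust prior, and 60 lower with 5 higher under array weights. It was 70 lower with 5 higher without early replicates 2 and 8, an alternative chosen after seeing the data. Leaving out each kidney gave 0 to 27 genes lower and 0 to 5 higher. The BG early kidneys alone gave 9 genes lower and 1 higher, with 0 of the 11 among them. The letters as a covariate, a fit in which early replicate 8 is the only early kidney with the letters of the late kidneys, gave 13 lower and 25 higher, with 1 of the 11 (Cndp1) among them, and 1 gene lower past the filter. Replicate numbers 6, 7 and 8 occur in both groups. The r of deviations between kidneys of the same number was 0.076, -0.2 and -0.117, and between kidneys of unlike numbers -0.317 to 0.294. In the titles the late numbers, 6 to 11, run on from those of the TACI-Ig late-remission kidneys, 1 to 5. Early kidneys are counted apart, from 1 to 8. The titles state no pairing by number, and the r values cannot show whether a number names a shared mouse. The replicate block gave 0 genes lower and 1 higher. The 11 genes were lower in all 275 of their alternative values, 177 of which lost the call. For the 10 genes without overlap, leaving out kidneys or taking subsets of them could not have changed the direction. The 61 genes examined gave 9 reversals in 1524 alternative values. With the letters as a covariate, Idh3b was 0.017, Acad11 0.021, Hadh 0.057, Bhmt 0.342, Apob 0.275, Cdkn1c 0.039, Irf7 -0.14 and Il1f6 -0.013, and with the GG kidneys alone Lcn2 was -0.047. The causes were not tested.

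A list median counted as moved when it shifted by more than the SD of the list mean between kidneys. Lists with a wide SD could thus change without counting. With the letters as a covariate the macrophage median of 0.22 became -0.01 and did not count. List medians moved in this sense in 32 of 1300 alternative values, many of them from fits that left out 1 kidney. With the letters as a covariate they were 0.062 for fatty acid oxidation, -0.107 for branched-chain amino acids, -0.018 for the citric acid cycle, 0.008 for oxidative phosphorylation, -0.054 for glutathione, 0.015 for collecting duct, -0.081 for costimulation, -0.154 for neutrophil, 0.001 for podocyte, 0.346 for circadian clock, 0.39 for adipose tissue, -0.195 for pancreas and -1.612 for male-specific proximal tubule. After quantile normalization they were -0.125 for branched-chain amino acids, -0.138 for aromatic amino acids, -0.025 for the citric acid cycle, -0.011 for oxidative phosphorylation and -0.09 for uronate. With the GG kidneys alone they were -0.032 for ketone bodies, -0.093 for uronate, -0.012 for sterol synthesis, -0.105 for hypoxia and -0.423 for circadian clock, and with the BG kidneys alone -0.139 for nucleotide kinases. In the replicate block they were -0.106 for nucleotide kinases, -0.242 for proximal tubule transporters, -0.191 for loop of Henle, 0.009 for collecting duct, 0.53 for immediate early genes, 0.057 for hypoxia and 0.957 for adrenal cortex. Without early replicates 2 and 8 the nucleotide kinase median was -0.113.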
